A study of Homo sapiens with 8 samples.

Results

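The MAGE family genes were followed across 4 lines of FT293 cells, a human embryonic kidney (HEK293) derivative in which tetracycline switches on a transgene placed at a defined genomic site by Flp recombinase. The lines expressed GFP alone, GFP-HuR, GFP-TIA1 or GFP-TIAR, and their RNA was taken 3 days after tetracycline was added. HuR (gene ELAVL1), TIA1 and TIAR (gene TIAL1) are RNA-binding proteins that control the splicing, stability and translation of their target RNAs. Each line was measured on 2 one-colour arrays, described by the submitters as independent biological replicates, so p-values measure the spread between those pairs. All lines carry the inducible system and a GFP tag, each protein is represented by 1 line, and no uninduced cells are among these 8 arrays. Members were taken by name, as every gene on the array called MAGE with a subfamily letter from A to L, with or without a number, and there were 30 of them among 36337 gene names. They were measured by 37 probes, and 7 of them had more than 1 probe. The family was selected on signals and detection flags of these same arrays, in which some MAGEA genes stood out in TIAR-expressing cells, so the TIAR comparisons are given as a description without a test.

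MAGE proteins share a conserved homology domain, through which many of them bind RING-type ubiquitin ligases and steer them to substrates. The type I genes, subfamilies A, B and C, lie on the X chromosome and are cancer-testis genes: they are transcribed in the male germ line, kept silent in most adult tissues in large part by promoter methylation, and switched on in many tumors. The type II genes, including subfamilies D, E, F, H and L, are transcribed in many normal tissues. Here 22 members were of type I and 8 of type II, and 28 of the 30 lay on chromosome X.

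Between 53.3% and 58.6% of all 50599 probes were well above background, by the scanner software's own flag, on 7 arrays, and 86.1% on the first GFP array. On that array 26 of the 30 MAGE genes were marked as well above background, against 8 on the second GFP array, and its mean local background was 90 intensity units against 37.4 to 43.5 on the others. Values of the first GFP array are therefore given beside those of the second. All 8 markers of HEK293 cells, neurofilaments and keratins among them, passed the same mark on every array except the second of GFP, where 7 did. Of the probes for TIAL1, the gene of TIAR, one read 40750 and 41387 units on the TIAR arrays and 3973 to 9578 on the others, while the other read 80.4 and 90.6 on the TIAR arrays and up to 149 elsewhere. The probes of TIA1 and ELAVL1 were not highest in the lines named for them, so they do not check those labels.

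The type II genes MAGED1, MAGED2, MAGED4B, MAGEE1, MAGEF1 and MAGEH1 were well above background on all 8 arrays, and no type I gene was. TIAR-expressing cells had 13 MAGE genes well above background on both arrays, 7 of them type I: MAGEA2B, MAGEA4, MAGEA6, MAGEA12, MAGEB1, MAGEC1 and MAGEC2. HuR-expressing cells had 11 with 5 of type I, TIA1-expressing cells had 7 with 1 of type I (MAGEA6), and GFP-expressing cells had 8 with 2 of type I (MAGEB6 and MAGEC1). Over all gene names, the share well above background on both arrays hardly varied, from 54.2% in TIA1-expressing to 57.3% in HuR-expressing cells. For 13 genes no probe was well above background on any array other than the first of GFP, and MAGEA1, MAGEA9 and MAGEB3 were below it there too. Of the 30 genes, 5 were well above background on both TIAR arrays and on none of the HuR, TIA1 and second GFP arrays in at least 1 probe: MAGEA2B, MAGEA4, MAGEA6, MAGEA12 and MAGEC2. Over all gene names 0.300% had that pattern, which is the pattern the family was chosen by.

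**Figure D1:**
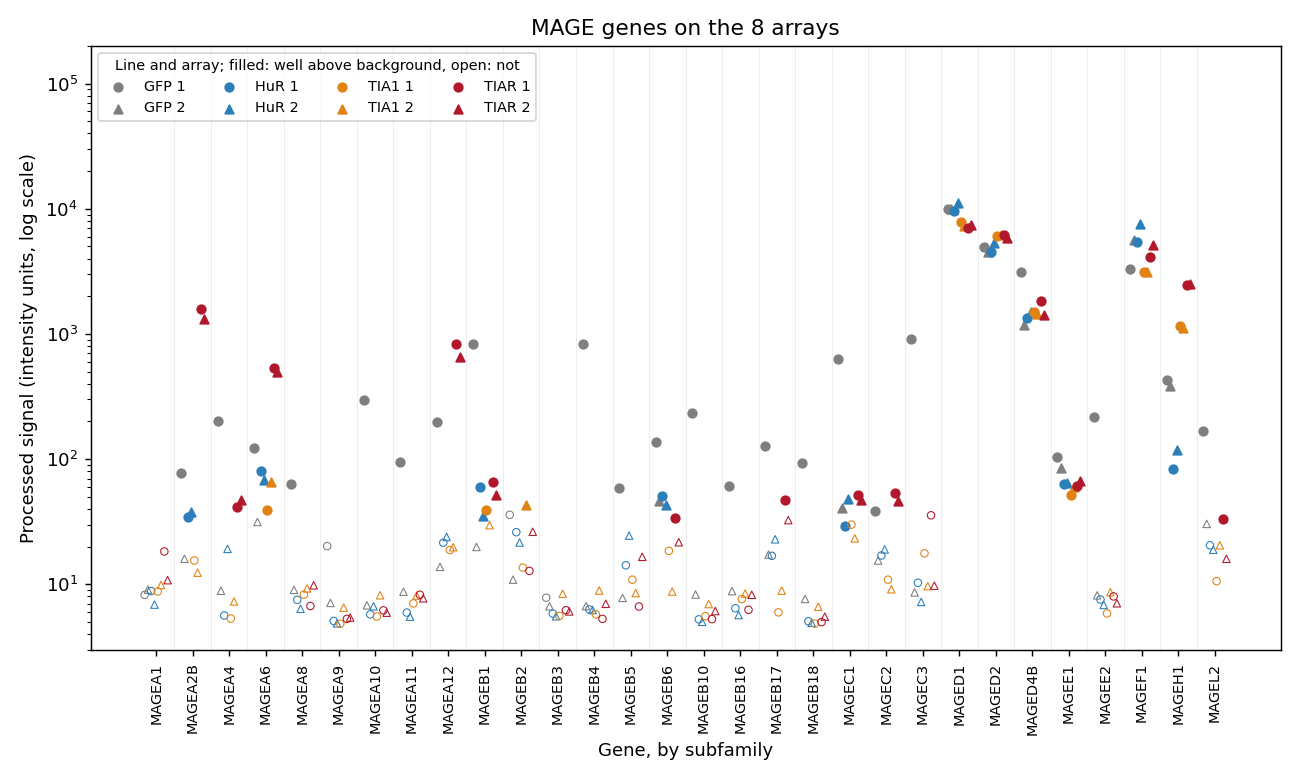
Processed signal (intensity units, log scale) of the 30 MAGE genes on each of the 8 arrays, 1 probe for each gene; circles are first and triangles second arrays, filled where the probe was well above background. MAGEA2B, MAGEA6 and MAGEA12 were high on both TIAR arrays, MAGED1, MAGED2 and MAGEF1 were high on all 8 arrays, and many other genes were raised on the first GFP array alone.

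MAGEA12, MAGEA2B and MAGEA6, of band Xq28, were each highest on the TIAR arrays. The probes of MAGEA12 and MAGEA6 measure related stretches of these closely related genes, and they are shown because how far they differ bears on which gene each can report. Their sequences overlap by 31 bases, in which 3 bases differ, and capitals mark those bases. On hg19 the MAGEA12 probe lies on chromosome X from 151899912 to 151899971, minus strand, and the MAGEA6 probe from 151870169 to 151870228, plus strand.
MAGEA12 probe A_23_P252928: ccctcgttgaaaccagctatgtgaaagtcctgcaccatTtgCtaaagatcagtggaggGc
MAGEA6 probe A_23_P136870: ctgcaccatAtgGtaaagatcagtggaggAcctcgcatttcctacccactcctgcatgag
The transcripts that the array design lists for the MAGEA12 probe are all of MAGEA12. Both MAGEA6 probes also list MAGEA3, and both MAGEA2B probes also list MAGEA2, so for those a signal can come from either copy. Probes were not assigned to exons or untranslated regions here.

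MAGEA12 read 831 and 657 intensity units on the TIAR arrays. It read 21.5 and 23.9 on the HuR arrays, 18.8 and 19.8 on the TIA1 arrays and 13.8 on the second GFP array, none of them well above background, and 198 on the first GFP array. The TIAR arrays thus lay above all others without overlap. Against the detection limit of each array, MAGEA12 was higher in TIAR-expressing cells by at least 35.5-fold over HuR, at least 24.5-fold over TIA1 and at least 24.4-fold over the second GFP array. Against both GFP arrays the log2 difference was 3.95, which averages a reading below background with the outlying first array: it was 5.73 without the first GFP array and 2.16 without the second. Since each protein is represented by 1 line, an effect of TIAR and a property of that line cannot be told apart, and in bulk RNA neither can more expressing cells and more RNA per cell.

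MAGEA2B, one of a pair of near-identical copies with MAGEA2, read 1589 and 1324 units in TIAR-expressing cells on its brighter probe, A_23_P148255. The same probe read 34.5 and 37.9 in HuR-expressing cells, just above detection, 15.5 and 12.4 in TIA1-expressing cells, below it, and 76.9 and 16.0 in GFP-expressing cells, where only the first array was above it. TIAR arrays were 48.0-fold above HuR arrays, at least 48.2-fold above TIA1 arrays and at least 48.0-fold above the second GFP array. The other probe, A_33_P3411165, read 113 and 87.2 on the TIAR arrays and 5.72 to 8.19 on the HuR, TIA1 and second GFP arrays, which gives bounds of at least 4.77-fold, 3.30-fold and 3.28-fold. Both probes were highest on the TIAR arrays, by different amounts.

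MAGEA6, whose protein and that of MAGEA3 bind the ligase TRIM28, read 535 and 497 units in TIAR-expressing cells on probe A_23_P136870, which is spotted 10 times. That probe read 81.1 and 68.4 in HuR-expressing, 39.1 and 65.7 in TIA1-expressing and 123 and 31.5 in GFP-expressing cells, and was well above background on all of these arrays but the second of GFP. It was 8.28-fold above HuR and 9.36-fold above TIA1. Probe A_33_P3342375 gave a sharper contrast, with 369 and 381 units on the TIAR arrays and 5.98 to 25.1 on the other 6, none of which was well above background. Its bounds were at least 18-fold over HuR, 12.5-fold over TIA1 and 14.0-fold over both GFP arrays. The 2 probes therefore disagreed on whether the other lines had any MAGEA3 or MAGEA6 signal.

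**Figure D2:**
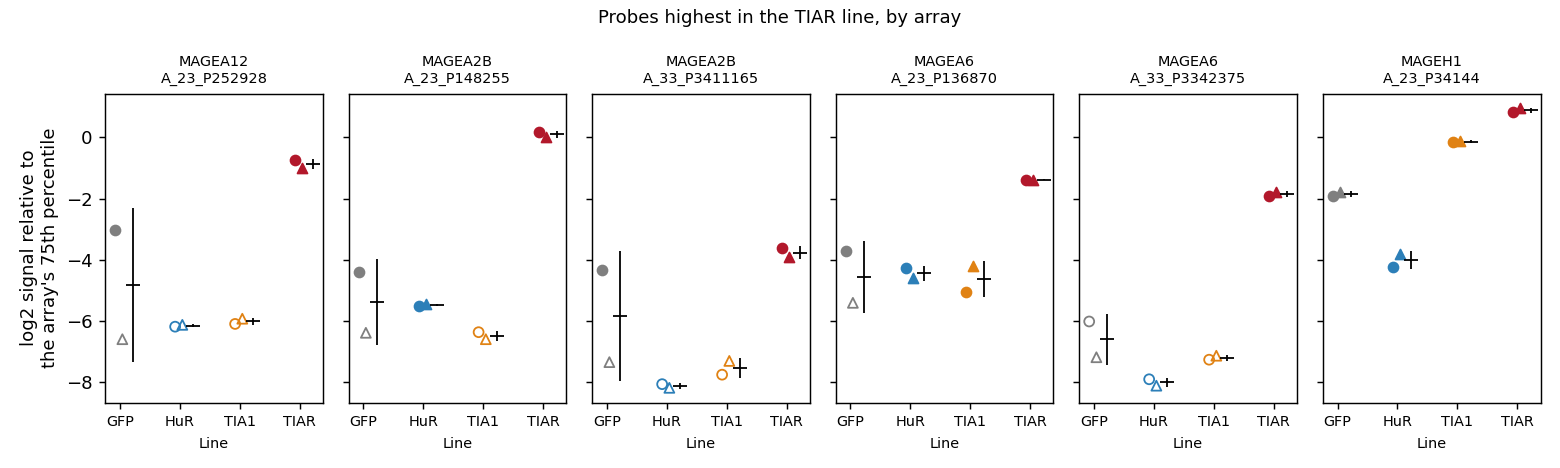
log2 signal relative to each array's 75th percentile for the probes of MAGEA12, MAGEA2B and MAGEA6 and for MAGEH1, by line; symbols are single arrays, filled where well above background, and bars are the mean with its SD over 2 arrays. The TIAR arrays were highest in every panel, and MAGEH1 also differed between the other lines.

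MAGEA4 and MAGEC2 were also above background on both TIAR arrays, at much weaker signals. MAGEA4 read 41.7 and 47.1 units on the TIAR arrays, 5.64 and 19.2 on the HuR, 5.33 and 7.30 on the TIA1 and 8.89 on the second GFP array, and 200 on the first. It was higher by at least 2.13-fold over HuR and at least 1.47-fold over TIA1, and the first GFP array lay above both TIAR arrays. With normexp background correction, and with the authors' values, in which the TIAR arrays were normalized apart from the other 6, both genes fell under a 2-fold difference from HuR and from TIA1. MAGEC2, whose protein also binds TRIM28, read 53.7 and 46.5 units on the TIAR arrays and 9.14 to 19.0 on the HuR, TIA1 and second GFP arrays, at least 2.40-fold over HuR and 1.66-fold over TIA1, and 38.7 on the first GFP array, where it was above background. Its other probe was above background on 1 of the TIAR arrays, at 34.3, and not on the other, at 25.1, and read 475 on the first GFP array.

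By the rule of a 2-fold difference in means with no overlap between the array pairs, 6 of 14 measured MAGE genes were higher in TIAR- than in HuR-expressing cells: MAGEA12, MAGEA2B, MAGEA4, MAGEA6, MAGEC2 and MAGEH1. The rule took 9.24% of all 21495 gene names upward in that comparison and 4.22% downward, and 0 MAGE genes downward. Against TIA1-expressing cells the same 6 genes of 13 measured were higher and 0 lower, with 2.83% of all gene names higher and 2.50% lower. Against both GFP arrays, MAGEA12, MAGEA2B, MAGEA6, MAGEC2 and MAGEH1 were higher and MAGEB6 was lower, of 14 measured, with 5.95% of all gene names higher and 8.67% lower. Without the first GFP array 7 were higher, adding MAGEA4 and MAGEB1, and 0 were lower, with 9.96% and 5.37% of all gene names. The median log2 difference over the measured MAGE genes was 0.62 against HuR, 0.77 against TIA1 and 0.21 against GFP. Over all probes it was 0.05, -0.02 and -0.02. A gene seen on both TIAR arrays was measured even where the other line lacked it, which favours higher values. Against TIA1 this brought in MAGEA12, MAGEA2B, MAGEA4, MAGEB1, MAGEC1 and MAGEC2. In the other direction, MAGEB6 came in through HuR and GFP. Of the 7 genes well above background on both TIA1 arrays, MAGEA6 and MAGEH1 were past 2-fold. The rest lay between -0.19 and 0.43 on their brightest probes. The medians do not show a shift of the whole family. The comparisons share the TIAR arrays, and the family was chosen by them.

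The promoters of the MAGEA genes above are shown because, in the RefSeq windows of 250 bases before and 50 after each start (GRCh38.p14), they share sequence. The longest run of letters common to the MAGEA12, MAGEA2B and MAGEA6 windows before the start had 27 bases and is in capitals. Each sequence runs from that stretch to the last base before the first annotated start of the gene, on chromosome X from 152733592 to 152733756 (plus strand) for MAGEA12, from 152714414 to 152714585 (plus strand) for MAGEA2B and from 152769690 to 152769928 (minus strand) for MAGEA6. For MAGEA12 and MAGEA6 the strands and the order are the reverse of those given for their probes, which are placed on another build, hg19. That difference between the builds was not examined.
MAGEA12 promoter: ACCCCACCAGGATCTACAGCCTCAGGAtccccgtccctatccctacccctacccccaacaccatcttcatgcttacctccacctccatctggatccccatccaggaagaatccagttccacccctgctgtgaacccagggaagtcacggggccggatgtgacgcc
MAGEA2B promoter: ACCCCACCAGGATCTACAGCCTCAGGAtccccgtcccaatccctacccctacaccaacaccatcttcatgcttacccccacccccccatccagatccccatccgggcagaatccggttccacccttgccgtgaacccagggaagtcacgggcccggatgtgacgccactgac
MAGEA6 promoter: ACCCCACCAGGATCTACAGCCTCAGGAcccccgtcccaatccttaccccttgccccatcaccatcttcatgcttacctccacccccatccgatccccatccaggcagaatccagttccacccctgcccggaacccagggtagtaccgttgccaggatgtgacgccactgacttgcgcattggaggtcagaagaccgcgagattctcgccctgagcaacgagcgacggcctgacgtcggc
The 27-base stretch, searched on both strands, was in 6 of 35116 promoter windows (0.0171%), and these belonged to MAGEA2, MAGEA2B, MAGEA3, MAGEA6 and MAGEA12, the genes that the MAGEA12, MAGEA2B and MAGEA6 probes list. It was not in the windows of MAGEA4 or MAGEC2, and MAGEH1 had no window to search. The MAGEA3 and MAGEA6 windows were identical over their 300 bases, as were those of MAGEA2B and a start of MAGEA2. The printed stretches hold 4, 7 and 14 CG dinucleotides, the sites of DNA methylation, for MAGEA12, MAGEA2B and MAGEA6. The whole windows hold 9 or 15 for the 2 starts of MAGEA12, 17 for MAGEA2B and 19 for MAGEA6, where the median window of all genes holds 14. The stretch was read from these promoters, its rarity is a description, and methylation was not measured.

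Some genes that are not MAGE were also higher on the TIAR arrays than on the HuR, TIA1 and second GFP arrays, and several of them lie within 1 Mb of the MAGEA12 probe. CSAG1, another cancer-testis gene, whose start lies 36 bases from a MAGEA12 start on the opposite strand, read 1669 and 2048 units on the TIAR arrays, 257 to 359 on the HuR and TIA1 arrays, 132 on the second GFP array and 809 on the first. CSAG2, whose probe was not among those placed within 1 Mb, read 343 and 391 on the TIAR arrays and 5.65 to 10.5 on the HuR, TIA1 and second GFP arrays, with 55.5 on the first. CSAG3, 28.0 kb from the MAGEA12 probe on hg19, read 82.7 and 88.8 against 40.8 to 82.4, and 157 on the first GFP array. Of CSAG1, CSAG2 and CSAG3, the last was thus not set apart. GABRE, a GABA receptor subunit gene, read 223 and 244 against 18.5 to 61.0 on those 5 arrays, but 897 on the first GFP array. A transcript without a symbol, 3.7 kb from the MAGEA12 probe, read 497 and 462 on the TIAR arrays, 35.7 to 55.9 on the same 5 arrays and 539 on the first of GFP. CETN2 and NSDHL, expressed genes 96.3 and 137.9 kb from that probe, had log2 differences of 0.09 and 0.06 from TIA1, -0.36 and -0.80 from HuR and -0.73 and -0.92 from the second GFP array. PNMA5 and PNMA6C, 257.8 and 343.2 kb from it, were higher on both TIAR arrays than on all others, by less. Their log2 differences were 0.26 and 0.2 from TIA1, 1.11 and 1.16 from HuR and 0.68 and 0.81 from the second GFP array. The region was picked after the values had been seen.

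**Figure D3:**
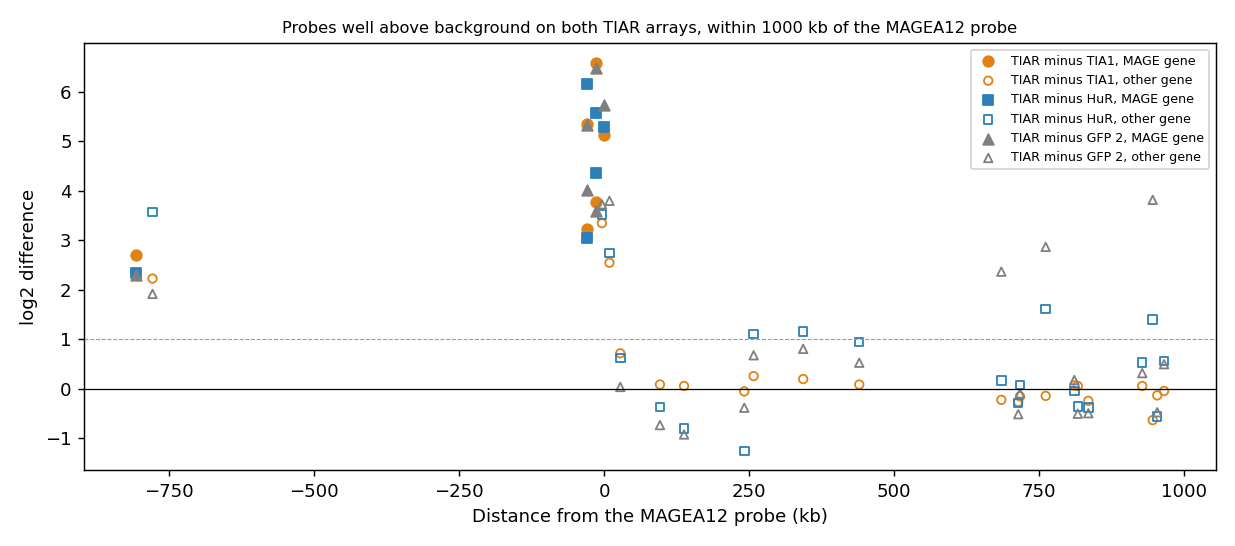
log2 difference of the TIAR mean from the TIA1 mean, the HuR mean and the second GFP array (vertical axis) against the distance from the MAGEA12 probe in kb (horizontal axis), for probes well above background on both TIAR arrays; filled symbols are MAGE genes. All 3 differences were past 2-fold for the MAGE probes, CSAG1, the unnamed transcript and, on the left, GABRE, and none for CSAG3, while on the right some differences from HuR and the second GFP array were past 2-fold and none from TIA1.

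MAGEH1 differed between all 4 lines and is the MAGE gene on which the TIA1 and HuR lines differed most. Its protein, like that of MAGED1, binds the neurotrophin receptor NGFR, and its probe lies on hg19 chromosome X at 55479877. It read 83.5 and 119 units in HuR-expressing, 426 and 386 in GFP-expressing, 1151 and 1119 in TIA1-expressing and 2459 and 2523 in TIAR-expressing cells. No 2 lines overlapped, and the order was HuR, GFP, TIA1 and TIAR. Relative to the 75th percentile, the log2 level was -4.02 ± 0.30 (SD, n = 2 arrays), -1.86 ± 0.10, -0.13 ± 0.04 and 0.88 ± 0.09. It was 14.8-fold higher in TIA1- than in HuR-expressing cells (log2 difference 3.89, standard error 0.17, adjusted p = 0.0018 from limma). MAGEH1 was 3.32-fold higher in TIA1- than in GFP-expressing cells (log2 difference 1.73, 95% interval 1.20 to 2.26) with an adjusted p of 0.094 from limma, and without the first GFP array the difference was 1.66 with an adjusted p of 0.023. From GFP- to HuR-expressing cells it was lower by a factor of 4.46, with an adjusted p of 0.16 from limma and, without the first GFP array, a log2 difference of -2.23 and an adjusted p of 0.020. The TIAR arrays were 2.02-fold above the TIA1, 6.70-fold above the GFP and 29.9-fold above the HuR arrays.

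Across the other broadly transcribed members the lines differed by much less. MAGED1, whose protein binds the ligase PJA1, ranged from 7017 to 11109 units over the 8 arrays, and its log2 difference between TIA1- and HuR-expressing cells was -0.07 (95% interval -0.33 to 0.19). MAGED2 read 6119 and 6135 units in TIA1-expressing, 4546 and 5334 in HuR-expressing, 4941 and 4529 in GFP-expressing and 6163 and 5847 in TIAR-expressing cells. Between TIA1 and HuR its log2 difference was 0.69 (adjusted p = 0.012 from limma), under 2-fold, and its other probe gave 0.68. Between TIA1 and GFP these probes gave 0.62 and 1.25, with adjusted p of 0.2 and 0.18 from limma. The other probe read 665 and 694 in TIA1-expressing, 548 and 551 in HuR-expressing, 274 and 417 in GFP-expressing and 795 and 465 in TIAR-expressing cells. MAGED4B, which shares its probe with MAGED4, had a log2 difference of 0.43 (adjusted p = 0.027 from limma) between TIA1 and HuR. MAGEF1, a partner of ubiquitin ligases on chromosome 3 rather than X, read 3139 and 3119 units in TIA1-expressing, 5424 and 7575 in HuR-expressing, 4086 and 5123 in TIAR-expressing and 3278 and 5628 in GFP-expressing cells. Its log2 difference between TIA1 and HuR was -0.66 (adjusted p = 0.037 from limma), again under 2-fold. MAGEE1, a member of the dystrophin-associated complex, read 52.2 to 67.1 units on the HuR, TIA1 and TIAR arrays and 104 and 85.2 on the GFP arrays, and its log2 difference between HuR and GFP was -0.69 (95% interval -1.13 to -0.25, adjusted p = 0.21 from limma).

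**Figure D4:**
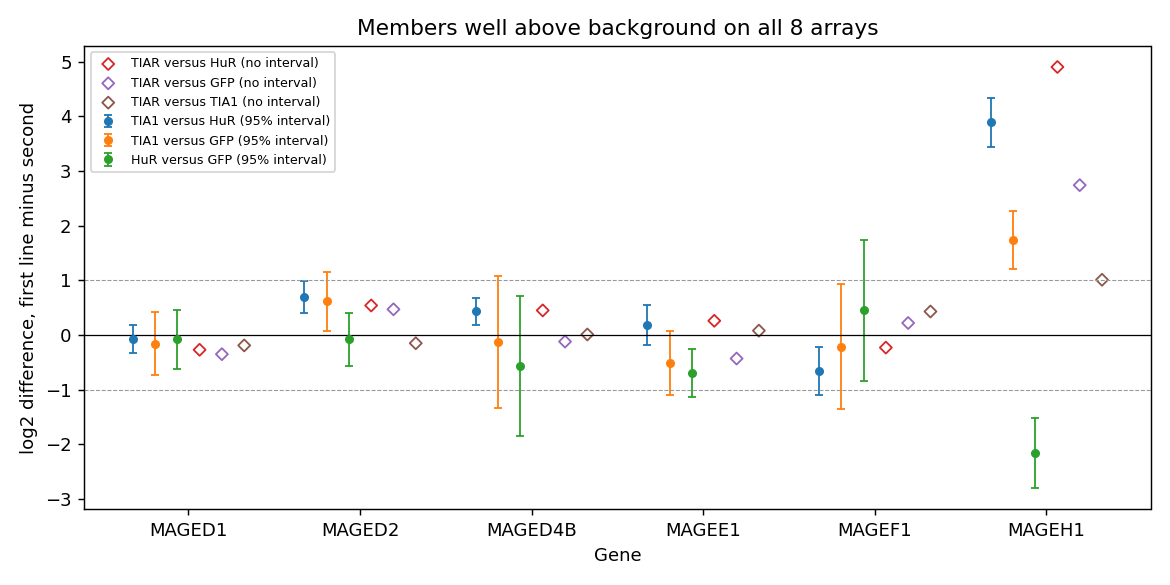
log2 difference (first line minus second) of the 6 members well above background on all 8 arrays, in the 6 comparisons; circles carry the 95% interval from limma, diamonds are TIAR differences with no interval, and dashed lines mark 2-fold. Each gene is shown by its brightest probe, so the other MAGED2 probe is not drawn. Apart from MAGEH1, all points lie between -1 and 1.

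Between TIA1- and HuR-expressing cells, 1 of 11 tested MAGE genes was called higher by limma, where a call needs a 2-fold change and p below 0.05 after adjustment, and 2 were called lower. The same test called 10.2% of all 21239 gene names higher and 5.79% lower. The gene called higher was MAGEH1. Those called lower were MAGEA2B (log2 difference -1.0, standard error 0.12, adjusted p = 0.0068) and MAGEB6 (-1.51, standard error 0.37, adjusted p = 0.036), both with weak signals: MAGEB6 read 51.2 and 43.1 units in HuR-expressing and 18.5 and 8.76 in TIA1-expressing cells, and neither gene was well above background in TIA1-expressing cells. With normexp background correction both differences changed sign, to 0.20 and 0.13, and neither gene was called, and leaving out either HuR array also ended both calls. All 8 arrays in one fit and the authors' values ended both as well, and without the second TIA1 array MAGEA2B was lost. Against the detection limit MAGEB6 was at least 1.30-fold higher in HuR-expressing cells, and MAGEA2B at least 1-fold, so no difference of MAGEA2B beyond that limit was measured. In the other lines MAGEB6 read 138 and 46.2 in GFP-expressing and 34.1 and 21.7 in TIAR-expressing cells, and it was below background on the second TIAR array.

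Against both GFP arrays limma called 0 of 9 tested MAGE genes in TIA1-expressing cells and 0 of 11 in HuR-expressing cells, in either direction, as it called 0% of all gene names higher and 0% lower in both comparisons. At an unadjusted p under 0.05 from limma there were 3 and 2 MAGE genes. No share of all gene names was taken at that threshold, so nothing is read from these counts. Without the first GFP array, MAGEH1 was called in both, higher in TIA1- and lower in HuR-expressing cells, with 8.88% of all gene names higher and 5.18% lower for TIA1 and 5.86% higher and 5.01% lower for HuR. In that fit the lone GFP array is assumed to vary like the arrays of the other line.

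The remaining type I genes were weak or undetected. MAGEB1 read 60.0 and 35.3 units in HuR-expressing, 39.4 and 29.7 in TIA1-expressing and 65.5 and 51.5 in TIAR-expressing cells, so the HuR and TIAR arrays overlapped, and 831 and 19.9 on the GFP arrays. MAGEC1 read 51.4 and 46.8 in TIAR-expressing, 29.1 and 48.2 in HuR-expressing, 30.0 and 23.3 in TIA1-expressing and 635 and 40.9 in GFP-expressing cells. Its other probe disagreed: it was not well above background on any of the 8 arrays, at 4.9 to 20.5 units, with 6.75 on the first GFP array. MAGEB4 and MAGEC3 read 827 and 910 units on the first GFP array and 5.30 to 35.6 on the other 7, where neither was well above background. MAGEL2, a type II gene of the Prader-Willi region on chromosome 15 whose protein works with TRIM27, USP7 and VPS35, read 169 on the first GFP array and 10.6 to 33.3 on the others, with 1 TIAR array above background. The type II gene MAGEE2 was above background on the first GFP array alone.

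Of the 3 MAGE relatives that carry other names, NDN was not well above background on any array and NDNL2, a subunit of the SMC5/6 complex, was not called. TRO, whose protein trophinin acts in cell adhesion, was called higher in TIA1- than in HuR-expressing cells (log2 difference 1.35, adjusted p = 0.0035 from limma), with 7994 and 7002 against 3506 and 4149 units, while its other probe gave 0.38 and was not called. Among 17 tested genes for proteins that MAGE proteins bind, 1 was called higher in TIA1- than in HuR-expressing cells (NGFR) and 3 lower (EID1, LNX1 and NSMCE1). LNX1, a ubiquitin ligase, read 403 and 424 units in HuR-expressing, 22.4 and 47.7 in TIA1-expressing and 388 and 186 in TIAR-expressing cells, and NSMCE1, the ligase of the SMC5/6 complex, had log2 differences of -1.02 and -1.85 between TIA1 and HuR on its 2 probes. TRIM28 had a log2 difference of 0.00 in the same comparison and -0.23 between TIAR and TIA1 arrays. The background for these counts is the one given above, 10.2% higher and 5.79% lower.

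Of 40 other cancer-testis genes listed, 29 were on the array under those names. Between TIAR- and HuR-expressing cells 6 of 14 measured were past 2-fold higher (CSAG1, CSAG2, CTAG2, PAGE2, TKTL1 and XAGE3) and 0 lower, and between TIAR- and TIA1-expressing cells 2 of 13 were higher (CSAG1 and CSAG2) and 0 lower. CSAG2 and XAGE3 were below background on both HuR arrays, and CSAG2 also on both TIA1 arrays. In those comparisons they were measured only through the TIAR arrays, which favours higher values. In TIA1- against HuR-expressing cells limma called 3 of 12 higher, CTAG2, PAGE2 and TKTL1, and 0 lower, so part of the list was also high in the TIA1 line. Over all gene names the shares higher in these comparisons were 9.24%, 2.83% and 10.2%. The values were 414 and 440 against 143 and 141 units for CTAG2 and 591 and 575 against 136 and 138 for PAGE2, and on the TIAR arrays both read between these, at 279 and 271 and at 332 and 338. Of 8 germ cell markers, 6 and 5 were well above background on the TIAR arrays, 3 or 4 on the TIA1 and HuR arrays and 2 on the second GFP array, with summed signals of 457 and 397, 269 to 331 and 243 units, and 7 with a sum of 2813 units on the first. DDX4, an RNA helicase of germ cells, read 84.4 and 69.3 in TIAR-expressing, 76.9 and 47.8 in TIA1-expressing and 12.4 and 24.0 in HuR-expressing cells, and was called higher in TIA1- than in HuR-expressing cells (log2 difference 2.19, adjusted p = 0.014 from limma). Neither HuR array was well above background for DDX4, so it was compared with HuR only through the other line, and the size of the difference is uncertain. SYCP1, of the synaptonemal complex, was 2.41-fold higher in TIAR- than in TIA1-expressing cells, with 99.5 and 55.5 against 34.3 and 23.4 units. It read 36.6 and 67.9 on the HuR arrays, overlapping the TIAR arrays, and 472 and 21.6 on the GFP arrays. Of 5 measured germ cell markers, 1 was past 2-fold higher in TIAR- than in HuR-expressing cells (DDX4) and 0 were lower. Against TIA1, 1 was higher (SYCP1) and 0 lower. Against GFP, 0 were higher and 1 was lower (ACR), beside 5.95% and 8.67% of all gene names. DAZL was below background on all 8 arrays and PRM2 on all but the first of GFP. Their part in the MAGEA result was not tested. Among 12 measured genes of DNA methylation and its partners, limma called 3 higher (DNMT3A, HDAC2 and UHRF1) and 1 lower (MBD2) in TIA1- than in HuR-expressing cells, beside 10.2% and 5.79% of all gene names. Each of these calls rested on 1 of the gene's probes, and the brightest probes of DNMT3A, HDAC2, UHRF1 and MBD2 gave log2 differences of 0.26, -0.10, 0.63 and -0.39, none of them called. Between TIAR- and GFP-expressing cells 1 was past 2-fold higher (UHRF1) and 3 were lower (DNMT3B, HDAC2 and MBD2), with 5.95% and 8.67% of all gene names. Those 3 lower genes each counted by a dimmer probe, and their brightest probes gave -0.26, -0.39 and -0.12. The dimmer probes of DNMT3B and MBD2 were below background on both TIAR arrays. That of HDAC2 read 664 and 140 units on the GFP arrays and 112 and 135 on the TIAR arrays. Between TIAR- and TIA1-expressing cells 0 were past 2-fold higher and 1 was lower (TET2, by 1 of its 4 probes, log2 difference -1.06), and the maintenance methyltransferase DNMT1 had a log2 difference of 0.21.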

How the data were processed

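RNA of 4 FT293 lines, GFP, HuR, TIA1 and TIAR, was hybridized to 8 one-colour Agilent human arrays, 2 for each line. The authors deposited the scanner output of each array, whose processed signals are intensity values after background subtraction and detrending, not normalized between arrays, and a series table of log2 values. By their distributions these were quantile-normalized, the TIAR arrays apart from the other 6, and the background correction is not given in the sources used here. The submitters' processing notes name limma. The files give probe positions on hg19. The second TIA1 array is named GFP-TIA1 in its title and GFP-TIA2 in its source label, and was grouped by its title.

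From log2 of every processed signal the 75th percentile of that array was subtracted, taken over the 58717 spots that are not controls. Outlier spots were removed, and replicate spots of 1 probe were averaged. A probe needed the scanner's flag on more than 0.5 of its spots to count as well above background. Lines were compared with limma 3.58.1 in R 4.3.3 on the 4 arrays of a comparison, over probes that passed this mark on both arrays of either line, with Benjamini-Hochberg adjustment over all of them. A gene was called when any of its probes was. Where neither array of a line passed it, a bound was taken, with each of its arrays set to the weakest signal that passed the mark there, or to the probe's own signal if that was higher. Precision is limited by having 2 arrays for each line. The test was tried on simulated data.

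Every MAGE gene detected on both arrays of a line is named, and those past 2-fold between any lines are given with all arrays. For a gene with several probes, the one with the highest mean log2 signal is given, with others where they disagree. Members and lists were chosen with earlier results of these data known. Alternatives tried were normexp correction (offset 50), quantile normalization, the authors' table, other filters on dim probes, 1 probe for each gene (that of the study's supplementary lists where they hold one), all 8 arrays in one fit, the replicate number as a block and leaving out each array. Promoters are RefSeq windows on GRCh38.p14, found for 26 of the 30 members. Plots were drawn with matplotlib 3.10.9.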

Additional observations from a re-analysis of the deposited data

How the results depend on the processing

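The log2 differences of MAGEA12, MAGEA2B and MAGEA6 between TIAR-expressing cells and each other line stayed past 2-fold under every alternative that gave a value (in the authors' table the TIAR arrays were normalized apart), as did MAGEH1 against HuR and GFP, and MAGEH1 stayed called between TIA1 and HuR. MAGEH1 between TIAR and TIA1 lay at the 2-fold limit, from 0.95 to 1.08. In TIA1 versus HuR, 3 MAGE genes were called, beside 15.9% of all gene names. The count was 1 with normexp correction, the authors' values, probes well above background on all 4 arrays, or all 8 arrays in one fit. Those settings called 9.3%, 7.1%, 13.6% and 11.3% of all gene names. Leaving out single arrays changed the count too. With normexp correction MAGEA2B and MAGEB6 reversed, to 0.20 and 0.13. All 8 arrays in one fit gave 2 for TIA1 versus GFP and 1 for HuR versus GFP, and leaving out single arrays gave 0 to 21 and 0 to 22, the highest without the second GFP array. For TIAR versus HuR the 6 genes became 10 without the filter on dim probes and 3 with the filter on all 4 arrays, beside 14.4% and 10.3% of all gene names. Without single arrays they were 6 to 7, beside 14.1% to 18.5%. For TIAR versus GFP the 6 became 13 without the filter, 8 of them lower, and 1 with the filter on all 4 arrays. All gene names passed at 25.3% and 11% there. Without single arrays they were 6 to 22. The 22 came without the second GFP array, with 17 lower, beside 55.2% of all gene names. For TIAR versus TIA1 the 6 became 3 with normexp correction (MAGEA12, MAGEA2B and MAGEA6) and 2 with the filter on all 4 arrays, beside 1.8% and 3.4% of all gene names. Without single arrays they were 6 to 8, beside 7.1% to 10.4%. The filter on all 4 arrays removes genes silent in a line by construction; the cause of the other changes was not tested. In GFP-expressing cells, 26 genes were well above background on the first array alone or on at least 1 array, against 8 on both. The shares of all gene names were 88.4%, 88.5% and 54.8%.

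The replicate numbers pair no samples by the labels. With the number as a block, 3 MAGE genes were called in TIA1 versus HuR and 0 in both GFP comparisons, so the block changed no call. Depth of counting does not apply to arrays: 2 arrays for each line limit every interval, and signals near the lowest value well above background, 23.2 to 33.1 units, have little order.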
